A study of Homo sapiens with 4 samples.

Results

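The YTH domain readers are the 5 human proteins built around a YTH domain, a fold whose aromatic pocket holds N6-methyladenosine (m6A) in RNA. They are YTHDF1, YTHDF2, YTHDF3, YTHDC1 and YTHDC2. They were picked by gene symbol and not by a cut on measured values, though earlier results of these data were known. All 5 were found among the 28283 genes with deposited expression values, and all 5 were among the 12268 genes kept, those with at least 1 FPKM (fragments per exon length and per size of the library) in at least 1 input library. They hold 16 of the 31057 distinct m6A peaks deposited for control cells and 10 of the 27344 for knockdown cells. The paper reports fewer m6A peaks for each condition than these lists hold.

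As background, m6A is an internal mark of mRNA that is added in the nucleus by a methyltransferase complex with METTL3 and METTL14 at its core, and it gathers near stop codons and in 3′-UTRs. YTHDF1, YTHDF2 and YTHDF3 are close paralogs of the cytoplasm. YTHDF2 is best known for bringing the CCR4-NOT deadenylase to methylated mRNA, YTHDF1 has been tied to translation and YTHDF3 to both, and how far the paralogs stand in for each other has been debated. YTHDC1 is the nuclear reader, known for roles in splicing and export, and YTHDC2 is a large helicase best known from germ cells at the entry into meiosis.

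RNA came from A549 cells, a human lung adenocarcinoma line, in which lentiviral shRNA had been made stable by puromycin. Control cells carried the vector control (shNC), and in knockdown cells the shRNA was directed at YTHDF2 (shY2-2). The study made another shRNA against YTHDF2 as well, which was not used in these libraries. Effects of shY2-2 on other RNAs thus cannot be told apart from those of lower YTHDF2. Fragmented poly(A) RNA was sequenced from each condition as 1 input library, which serves as RNA-seq, and as 1 library of fragments bound by an m6A antibody (IP), which makes 4 libraries in all and m6A peaks called once per condition. With 1 library of each kind per condition, differences could not be checked against replicates and conditions were not compared by p-values, so all comparisons describe these libraries. How many fragments stand behind each value or peak is unknown, and in bulk RNA fewer cells with a transcript and less of it per cell cannot be told apart. Whether the lines were clones or pools is not given in the sources used here.

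The libraries carried the marks of A549. The keratin KRT18 stood at 388 and 281 FPKM and the aldo-keto reductase AKR1B10 at 1801 and 2044 FPKM in the shNC and shY2-2 input libraries, while CDKN2A, which A549 has lost, stood at 0.0153 and 0.0178 FPKM. Of the 6 markers of blood, endothelial, fibroblast and liver cells, 1 was kept, the collagen gene COL1A1, at 0.834 and 1.64 FPKM. Of the 7 markers of alveolar type II cells, 1 was kept, the lipid transporter ABCA3, at 4.81 and 3.62 FPKM, and the surfactant gene SFTPC was at 0.0303 and 0.0670 FPKM. Of the 9 epithelial and A549 markers, 8 were lower in shY2-2, as were 6102 of the 12268 genes kept. Past 1.5-fold on the lower side were 4 of the 9, against 8.92% of genes kept. Among these 4, KRT19 was at 25.9 and 12.9 FPKM and CDH1, the adherens junction cadherin, at 9.99 and 5.28 FPKM. The part of this shift in the readers' values was not tested.

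In the input libraries, YTHDF2 RNA was lower after knockdown and no other YTHDF RNA was lower to a like extent. YTHDF1, the most abundant reader, was nearly level, YTHDF3 was moderately higher, and both YTHDC transcripts were lower. Each difference is given as the log2 ratio of shY2-2 over shNC after 1 was added to both FPKM values, so changes of weakly expressed genes are understated. The median of this log2 ratio over all genes kept was 0.00.

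**Figure D1:**
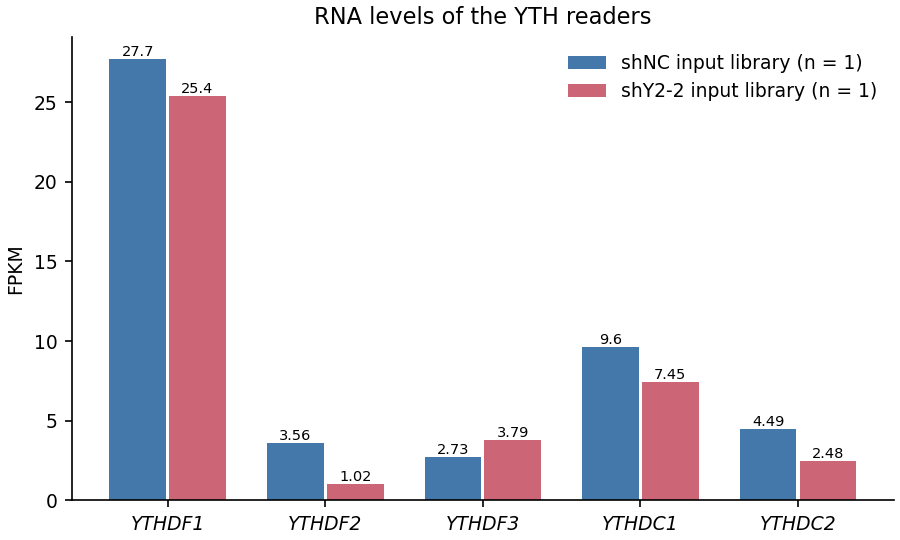
RNA level of the 5 YTH readers in FPKM (y axis, from 0) in the shNC and shY2-2 input libraries, 1 library per bar, with no error bars because each condition has 1 library. YTHDF1 is the tallest pair at 27.7 and 25.4 FPKM, YTHDF2 drops from 3.56 to 1.02 FPKM, and YTHDF3 is the only reader with the taller bar in shY2-2.

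YTHDF2 (ENSG00000198492, GRCh38 chr1:28736621-28769775, + strand) is the gene the shRNA targets and serves as the check of the labels. Its level of 3.56 FPKM in shNC and 1.02 FPKM in shY2-2 is a 3.50-fold lower linear value, a loss of 71.4%. Its log2 ratio of -1.18 was undercut by 133 of the 12268 genes kept, and the central 95% of the 500 genes nearest to it in mean FPKM ran from -0.83 to 0.76. YTHDF2 was the 1 reader of 5 past 2-fold, against 3.12% of genes kept in either direction. It was on the lower side, where 2.14% of genes kept were found, and 0 readers were past 2-fold on the higher side, where 0.986% were. YTHDF2 RNA was still listed at 1.02 FPKM in shY2-2, so the knockdown was partial at the level of the library.

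Reads of YTHDF2 could be shared with other loci. YTHDF2P1, a processed pseudogene on chromosome 14, matches 1275 nt of the YTHDF2 transcript at 97.7% identity, and its level was 0.00949 FPKM in shNC and 0 in shY2-2. An antisense gene, ENSG00000289291, overlaps 208 nt of the transcript and has no value in the expression table. No other reader shared 100 nt or more at 95% identity with another gene, and the YTHDF paralogs did not share such a stretch with each other.

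YTHDF1 (ENSG00000149658, GRCh38 chr20:63195429-63216234, - strand) was the most abundant reader, at 27.7 FPKM in shNC and 25.4 FPKM in shY2-2. The difference of -8.44% is a log2 ratio of -0.12, at percentile 37.1 of all genes kept and at percentile 30.6 of the 500 genes nearest in mean FPKM. Ratios of those neighbours had an SD of 0.488, so the YTHDF1 difference is small beside the spread of genes of like level. In these libraries, the paralog that makes up most of the YTHDF RNA did not stand higher when YTHDF2 was lower.

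YTHDF3 (ENSG00000185728, GRCh38 chr8:63168553-63212786, + strand) was the least abundant reader in shNC, at 2.73 FPKM, and the third in order in shY2-2, at 3.79 FPKM. It is the one reader with a higher value in shY2-2, by 39.3%, a log2 ratio of 0.36. That ratio was exceeded by 1882 of the genes kept and lay at percentile 85.0 of its 500 neighbours, whose central 95% ran from -0.90 to 0.79. The value therefore sits inside the range of genes of like level and below 1.5-fold, a limit passed on the higher side by 5.38% of genes kept and by 0 of 5 readers. YTHDF3-AS1, which starts next to YTHDF3 on the opposite strand, was also listed higher, at 0.603 and 1.12 FPKM.

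YTHDC1 (ENSG00000083896, GRCh38 chr4:68310387-68350089, - strand), the nuclear reader, stood at 9.60 FPKM in shNC and 7.45 FPKM in shY2-2. Its log2 ratio was -0.33, at percentile 20.8 of all genes kept. YTHDC2 (ENSG00000047188, GRCh38 chr5:113513683-113595285, + strand), the helicase, stood at 4.49 FPKM and 2.48 FPKM, a 1.82-fold lower linear value. Its log2 ratio of -0.66 lay at percentile 8.20 of its 500 neighbours, and 846 genes kept were lower. With YTHDF2 and YTHDC2, 2 of 5 readers were past 1.5-fold on the lower side, where 8.92% of genes kept were found, and YTHDF2 is there as the target of the shRNA.

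**Figure D2:**
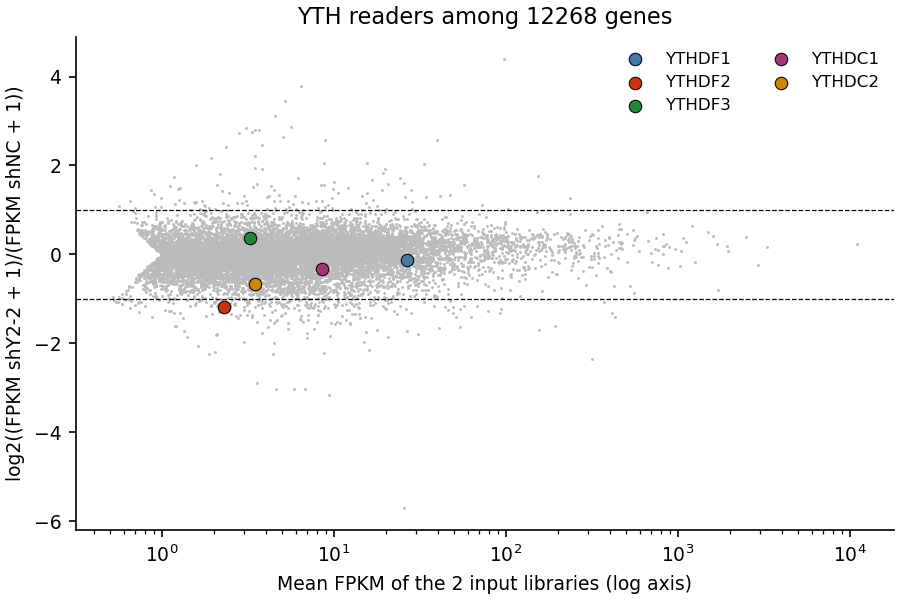
Log2 ratio of FPKM in shY2-2 over shNC (y axis, with 1 added to each value) against mean FPKM of both input libraries (x axis, log scale) for the 12268 genes kept in grey and the 5 readers in colour, with dashed lines at 2-fold. YTHDF2 lies below the lower line at -1.18, YTHDC2 at -0.66 is next, and YTHDF1, YTHDF3 and YTHDC1 lie within the cloud between -0.33 and 0.36.

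The order of levels differed between the input libraries. In shNC it was YTHDF1, YTHDC1, YTHDC2, YTHDF2 and YTHDF3, and in shY2-2 it was YTHDF1, YTHDC1, YTHDF3, YTHDC2 and YTHDF2. Neighbours in the lower part of this order were close, YTHDF2 at 3.56 and YTHDF3 at 2.73 FPKM in shNC, and with 1 library each no spread over samples can be set against such gaps.

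Summed over the paralogs, the YTHDF level was 34.0 FPKM in shNC and 30.2 FPKM in shY2-2, a difference of -3.82 FPKM. YTHDF2 accounted for -2.55 FPKM of it and YTHDF1 for -2.34 FPKM, while YTHDF3 was higher by 1.07 FPKM. YTHDF1 and YTHDF3 summed to 30.5 and 29.2 FPKM, so their sum was not higher in shY2-2. That sum is mostly YTHDF1, whose 500 neighbours in level had log2 ratios with an SD of 0.488. A change in YTHDF1 as small as the YTHDF2 difference cannot be resolved with 1 library per condition. The share of the YTHDF sum held by YTHDF2 went from 10.5% to 3.37%, that of YTHDF3 from 8.01% to 12.6%, and that of YTHDF1 from 81.5% to 84.1%. Per molecule of YTHDF2 RNA there were thus 7.78 of YTHDF1 in shNC and 24.9 in shY2-2, as ratios of FPKM. The YTHDC pair summed to 14.1 and 9.93 FPKM, a log2 ratio of the sum of -0.51, and all 5 readers to 48.1 and 40.1 FPKM.

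The log2 ratio of a gene moved with its base composition and length across these libraries, and 3 of the readers are AT-rich and long. Over 12202 genes kept with a reference transcript, Spearman's rho of the log2 ratio was 0.28 with GC content and -0.25 with spliced length. This is a description across genes of the same pair of libraries, and genes are not independent. In 10 bins of equal gene number, the genes of lowest GC content had a median log2 ratio of -0.22 and those of highest GC content 0.11.

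YTHDF3 has 38.4% GC and 5095 nt, and it stood at percentile 94.2 of the genes in its bin of GC content. Less the median of genes in the same bins of GC content and of length, an alternative added after the data were seen, its ratio was 0.59 in place of 0.36, at percentile 95.8 of genes kept. YTHDC1, with 40.3% GC and 6233 nt, came to -0.02 and YTHDC2, with 40.1% GC and 6305 nt, to -0.35. The lower YTHDC1 value was thus as large as that of genes of like composition, and the YTHDC2 value was larger. By this alternative YTHDF3 was just past 1.5-fold on the higher side, and YTHDC2 was not past it on the lower side. YTHDF2 at 45.9% GC kept -1.20 and YTHDF1 at 50.9% GC kept -0.08.

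**Figure D3:**
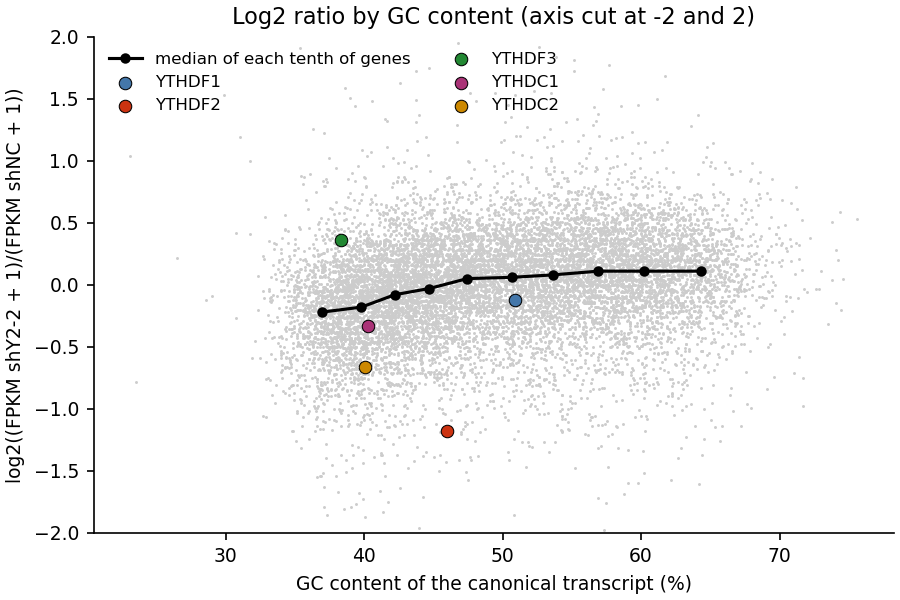
Log2 ratio of FPKM in shY2-2 over shNC (y axis, limited to -2 to 2) against GC content of the canonical transcript in percent (x axis), with genes in grey, the 5 readers in colour and the medians of 10 GC bins as a black line. The line climbs from -0.22 to 0.11, YTHDF3 lies above it, YTHDC1 lies nearer to it than YTHDC2, and YTHDF2 is far below it.

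The genes whose levels lay nearest to those of YTHDF2 in both input libraries were SEMA3B (3.36 and 0.983 FPKM), GLIPR1 (3.32 and 1.12 FPKM) and PBRM1 (3.50 and 1.17 FPKM). Nearness was the Euclidean distance of log2(FPKM + 1) over 2 libraries, which came to 0.0690, 0.107 and 0.108. SEMA3B encodes a secreted semaphorin and PBRM1 a bromodomain subunit of the PBAF chromatin remodeler.

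The rest of the m6A machinery was past 1.5-fold about as often as other genes. Of 50 genes in 5 lists, 49 were kept and 0 were past 2-fold, 3 were past 1.5-fold on the higher side and 3 on the lower side, where 14.3% of all genes kept were past it in either direction. Their median log2 ratio was -0.13 against 0.00 for all genes kept. None of the 12 writers was past 1.5-fold, with ratios between -0.44 and 0.56. Both erasers were higher, as were 6166 of the 12268 genes kept. FTO, a demethylase of m6A, was at 0.949 and 2.37 FPKM (log2 ratio 0.79) and ALKBH5, the other demethylase, at 31.8 and 42.2 FPKM (0.40). FTO is among the genes counted past 1.5-fold on the higher side, and it passed the filter of 1 FPKM through its shY2-2 value alone. Among 13 readers without a YTH domain, 1 was past 1.5-fold, IGF2BP1, which is known to stabilise m6A mRNA, at 13.2 and 22.4 FPKM (log2 ratio 0.72).

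Partners of the readers were counted in the same way, beside 6166 higher and 6102 lower among all 12268 genes kept. Of 13 genes of the decay machinery that YTHDF2 is known to work with, 5 were higher and 8 lower, with a median log2 ratio of -0.13. Past 1.5-fold were 2 of the 13 on the lower side, against 8.92% of genes kept, and 1 on the higher side, against 5.38%. CNOT1, the CCR4-NOT scaffold that YTHDF2 binds, was at 27.0 and 16.0 FPKM (log2 ratio -0.72), and the deadenylase CNOT6 was at 7.64 and 4.65 FPKM (-0.61). CNOT11, another subunit, was higher, at 13.3 and 21.3 FPKM (0.64). Of 9 partners of YTHDC1 and YTHDC2 that were kept, 2 were higher and 7 lower. XRN1, the exonuclease that YTHDC2 binds, was lower past 1.5-fold at 1.84 and 0.765 FPKM (log2 ratio -0.69). It passed the filter of 1 FPKM through its shNC value alone. With 37.1% GC it falls in the bin of lowest GC content, where the median log2 ratio was -0.22.

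All 5 readers carried m6A peaks on their own transcripts in both lists, as did 72.8% of genes kept (81.4% had a shNC peak and 78.5% a shY2-2 peak). In each condition a peak is a stretch of exons where the IP library was enriched over the input library. From shNC to shY2-2, the number of peaks went from 3 to 3 on YTHDF1, from 4 to 3 on YTHDF2, from 4 to 2 on YTHDF3, from 3 to 1 on YTHDC1 and from 2 to 1 on YTHDC2. Thus 4 of 5 readers had fewer peaks in shY2-2, against 44.0% of genes kept with a peak in either list and 50.6% of those with 2 to 4 peaks in shNC. Of the reader peaks, 6 of 16 in shNC and 3 of 10 in shY2-2 had a false discovery rate (FDR) above 0.05. Among the peaks at or under that limit, YTHDF2 had 3 and 2 and YTHDF3 had 3 and 1, while YTHDF1 (3), YTHDC1 (1) and YTHDC2 (0) had equal numbers in both lists. With a fold enrichment of at least 2, the readers had 4 peaks in shNC and 6 in shY2-2, so the direction of the total turned.

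Of the 16 shNC peaks, 9 overlapped a shY2-2 peak on the same transcript, close to the 55.9% of all shNC peaks that did so. Of the 10 shY2-2 peaks, 9 overlapped a shNC peak, against 65.4% of all shY2-2 peaks. The exception was YTHDC2, whose peaks did not meet. By the canonical GENCODE transcripts, 11 of 16 shNC reader peaks overlapped coding sequence, against 53.4% of all peaks, 8 overlapped the 3′-UTR, against 48.2%, and 5 came within 100 nt of a stop codon, against 21.9%. In shY2-2 the counts were 7, 5 and 4 of 10, against 47.9%, 50.3% and 21.9%. None of the reader peaks touched a 5′-UTR of these transcripts, against 9.32% and 9.99% of all peaks, although the authors' annotation put 2 shNC peaks of YTHDF2 there.

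**Figure D4:**
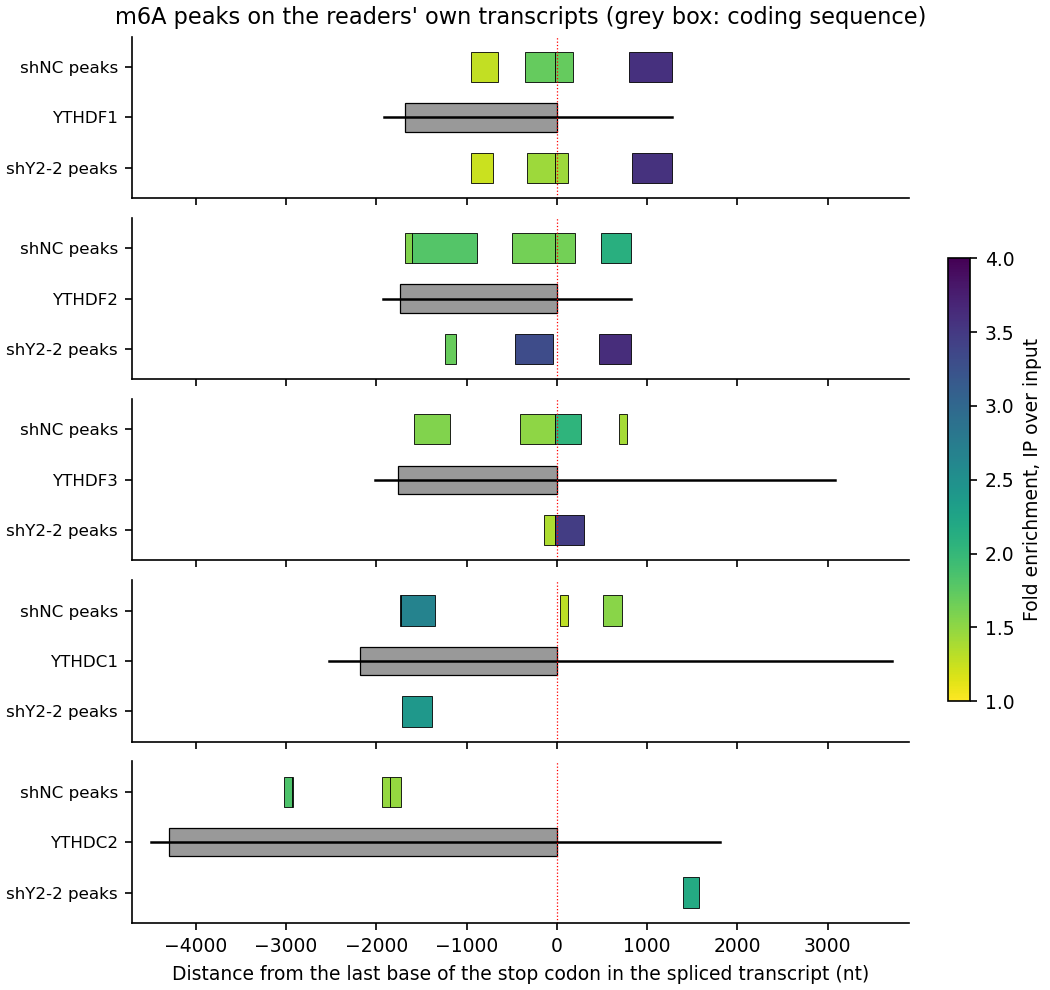
Map of the m6A peaks on each reader's canonical spliced transcript (x axis, distance in nt from the last base of the stop codon, red dotted line), with shNC peaks above and shY2-2 peaks below, coloured by fold enrichment of IP over input. Grey boxes are coding sequence and black lines the whole transcript, and the 3 YTHDF transcripts carry peaks around the stop codon in both lists whereas the shared YTHDC1 peak lies inside the coding sequence.

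On YTHDF1 both lists gave the same picture. A weak peak in the coding sequence, 951 to 653 nt before the end of the stop codon, had a fold enrichment of 1.27 in shNC and 1.24 in shY2-2. A peak across the stop codon, from 356 nt before to 179 nt after it in shNC, stood at 1.71 and 1.44. The strongest, in the 3′-UTR from 803 nt after the stop codon to the end of the transcript at 1279 nt, stood at 3.58 (FDR 1.26e-14) and 3.57 (FDR 6.31e-19). Peaks covered 41.0% of the transcript in shNC and 35.4% in shY2-2, and every base covered in shY2-2 was also covered in shNC.

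On YTHDF2's own mRNA, peaks covered 66.2% of 2744 nt in shNC, the widest coverage of the 5 readers in that list, and 32.8% in shY2-2, where YTHDF1 had more. A broad coding peak of 718 nt in shNC (fold enrichment 1.80, FDR 0.0288) met a peak of 121 nt in shY2-2 (1.70, FDR 0.105). The first shNC peak (1.57, FDR 0.235) had no counterpart. Of its 241 nt, 161 were outside the canonical transcript, and the rest was coding sequence that began within 100 nt after the start codon. The peak before the stop codon stood at 1.64 in shNC, where it was 689 nt long and crossed into the 3′-UTR, and at 3.31 in shY2-2 (FDR 6.92e-10), where it was 420 nt long and ended 44 nt before the end of the stop codon. The peak at the 3′ end of the transcript stood at 2.11 (FDR 0.000631) and 3.62 (FDR 8.71e-06). YTHDF2 thus had fewer peaks and less covered sequence after knockdown, with a higher fold enrichment in 2 of the 3 stretches that were still called and a slightly lower one in the coding stretch.

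On YTHDF3 the coding peak of 389 nt (fold enrichment 1.57, FDR 0.00166) and a peak of 91 nt in the 3′-UTR (1.40, FDR 0.160) were in the shNC list alone. The peak that begins at the last coding bases and runs into the 3′-UTR was in both lists, at 2.05 (FDR 4.27e-07) and 3.47 (FDR 2.75e-05). Directly before it, a coding peak stood at 1.51 in shNC and 1.37 in shY2-2 (FDR 0.256). In both lists 92 nt of that coding peak lay outside the canonical transcript. Of the peak after it, 8 nt lay outside in shNC and 98 nt in shY2-2. Peaks covered 22.8% of the canonical transcript in shNC and 8.66% in shY2-2.

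YTHDC1 differed from the YTHDF genes in where its main peak lay. That peak was in the coding sequence, mostly in exon 4 of 17, from 1741 to 1352 nt before the end of the stop codon, with a fold enrichment of 2.66 in shNC (FDR 7.41e-10) and 2.40 in shY2-2 (FDR 9.55e-10). Of the other shNC peaks, both in the 3′-UTR, neither was in the shY2-2 list, and their FDR was 0.184 and 0.321. YTHDC2 had the least coverage, 4.79% and 2.86% of 6305 nt. Its 2 coding peaks in shNC (1.84 and 1.48) and its 3′-UTR peak in shY2-2 (2.18) all had an FDR above 0.05, between 0.176 and 0.361.

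Fold enrichments were compared for the 9 pairs of overlapping reader peaks. In 3 of 9 pairs the value was higher in shY2-2, against 42.6% of all 15963 pairs. All 3 were higher by over 1.5 times, a size reached by 9.97% of all pairs. They were the YTHDF2 peak before the stop codon (log2 ratio of the fold enrichments 1.01, percentile 95.5 of all pairs), the YTHDF2 peak at the 3′ end (0.78, percentile 93.2) and the YTHDF3 peak after the stop codon (0.76, percentile 92.9). The other 6 pairs lay between -0.25 and 0.00, and the median of all pairs was -0.07.

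The reads behind these values are unknown, and many fold enrichments repeat in both lists. In shNC the most frequent value, 6.87, was shared by 626 peaks. Of the 7 most frequent shNC values, all but 4.2 lie within 0.01 of a whole multiple of 0.763. In shY2-2 the 7 most frequent values all lie within 0.01 of a whole multiple of 1.156. The YTHDF3 value of 3.47 is the second most frequent in shY2-2, shared by 785 peaks or 2.87% of that list. The YTHDF2 values of 3.31 and 3.62 were shared by 8 and 6 peaks. The paired YTHDF2 peaks before the stop codon also differed in length, by 1.64 times. Among the 9147 pairs whose lengths were within 1.5 times of each other, the 3′ end peak of YTHDF2 lay at percentile 95.0 and the YTHDF3 peak at percentile 94.7.

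The fold enrichments of all overlapping pairs were also set beside the RNA level of their genes. In 248 pairs from the 143 genes with a log2 FPKM ratio below -1, YTHDF2 among them, 49.2% were higher in shY2-2 and the median log2 ratio of fold enrichments was 0.00. Between -1 and 1 these values were 42.4% and -0.07, and above 1 they were 36.4% and -0.11. Pairs of genes with lower RNA were thus more often higher in enrichment. The same input libraries enter both ratios, so a lower shY2-2 input value alone lowers the FPKM ratio and raises that of fold enrichments. How much of the trend comes from this link was not tested. The central 95% reached up to 1.38 in the first group and up to 1.37 in genes between -1 and 1. Both ranges take in the YTHDF2 values of 1.01 and 0.78, so this bound does not tell the groups apart. The part of the lower RNA level in the YTHDF2 values was not tested. YTHDF3 RNA was higher in shY2-2, and its peak after the stop codon was also more enriched.

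**Figure D5:**
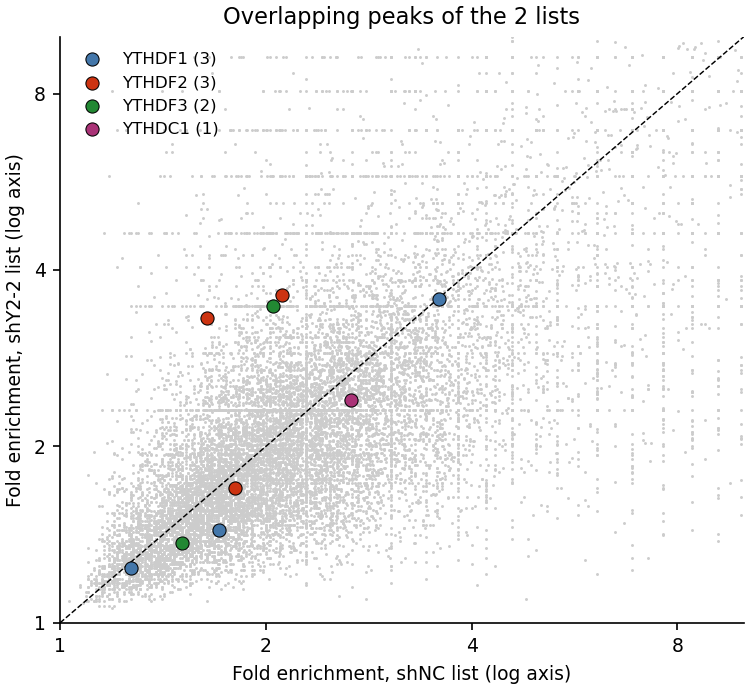
Fold enrichment of IP over input in the shY2-2 list (y axis, log scale) against that in the shNC list (x axis, log scale) for overlapping peaks, with all pairs in grey, reader pairs in colour and a dashed line of equality. Of the 9 reader pairs, 2 of YTHDF2 and 1 of YTHDF3 lie well above the line at 3.31 to 3.62 in shY2-2, and the other 6 lie on or just below it, while the horizontal and vertical stripes are values that many peaks share.

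The sequence under the peaks was read from GRCh38 for the stretches covered in both lists. Occurrences of GGAC, the core in which m6A is most often found, were counted on the mRNA strand alone, and the related cores GAAC, then AGAC, and last AAAC were counted likewise. By their letters, none of these can overlap another. YTHDF1 held 6 GGAC in 1133 nt of shared stretch, 5.30 per kb, against 5.00 per kb over its whole transcript. YTHDF2 held 6 in 871 nt, 6.89 per kb, against 4.74. In the shared stretches of YTHDF1, AAAC stood at 11.5 per kb against 6.25 over the whole transcript, and GAAC and AGAC were below their whole-transcript values. In YTHDF2, GAAC and AGAC were each at 3.44 per kb against 4.01, and AAAC was at 5.74 against 5.10. Among all peaks longer than 400 and up to 800 nt, 81.3% in shNC and 81.5% in shY2-2 contain GGAC, so its presence alone sets no reader peak apart.

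In 3 places, GGAC cores of YTHDF1 recur at the matching place in the coding sequence of YTHDF2, where the distance to the stop codon is 3 nt shorter. They lie under the stop codon peaks of both mRNAs in both lists, and are printed because they are where these paralogs carry the same candidate site. Each line gives 21 bases of the mRNA in 5′ to 3′ direction with the core in capitals.
YTHDF1, 310 nt before the end of the stop codon, chr20:63202560-63202580, - strand: tcccccgtGGACtacggcacc
YTHDF2, 307 nt before, chr1:28743693-28743713, + strand: tctgctgtGGACtacaacaca
YTHDF1, 277 nt before, chr20:63202527-63202547, - strand: tggtctcaGGACaagtggaag
YTHDF2, 274 nt before, chr1:28743726-28743746, + strand: tggtcccaGGACaaatggaag
YTHDF1, 160 nt before, chr20:63202410-63202430, - strand: aactcccgGGACacccaggag
YTHDF2, 157 nt before, chr1:28743843-28743863, + strand: aactctagGGACactcaggaa
The bases shared between the paralogs were 15 of 21, 19 of 21 and 17 of 21. A peak of this length does not say which of these adenosines was methylated.

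The shared peak of YTHDC1 and the shared stretches of YTHDF3 held no GGAC. In 330 nt of YTHDC1 GAAC occurred 3 times and AGAC also 3 times, each 9.09 per kb, against 3.53 and 3.69 per kb over the whole transcript. The GAAC sites, all in exon 4, are printed to show what the strongest peak of the nuclear reader offers in place of GGAC.
YTHDC1, chr4:68337376-68337396, - strand: gaagaagtGAACtctgaagaa
YTHDC1, chr4:68337313-68337333, - strand: gagcaaggGAACaacactgag
YTHDC1, chr4:68337147-68337167, - strand: aagaatatGAACaggatgaga
Among all shNC peaks longer than 200 and up to 400 nt, 61.9% contain GAAC and 62.6% GGAC. The shared stretches of YTHDF3, 411 nt in all, held GAAC 2 times, with 2 occurrences of AGAC and 3 of AAAC. That GGAC is not found says only that these letters are not in these stretches.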

How the data were processed

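Input and m6A IP libraries of shNC and shY2-2 A549 cells were grouped by their labels. Per the labels, the authors' processing used fastp, HISAT2, StringTie, HOMER and ChIPseeker on GRCh38. The methods of the study name exomePeak for peak calling. Tool versions are not given in the sources used here. The deposited FPKM values are the authors', per gene from the input libraries, and keep no counts, so no count test was run. Each deposited peak comes with the authors' p-value, their log10 score of the FDR, and a fold enrichment (the linear ratio of the IP to the input signal), from 1 IP against 1 input library. Every deposited p-value was at most 0.049. Repeated positions counted once.

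Log2 ratios used a pseudocount of 1 FPKM and genes with at least 1 FPKM in at least 1 input library. Peaks were compared by at least 1 nt of exonic overlap on the same strand, and placed on canonical transcripts of GENCODE release 44 (27939 of 28283 gene IDs found). Shared sequence was sought with BLAST 2.17.0. Genes outside the readers were named where they passed 1.5-fold, as the 3 nearest to YTHDF2, or as markers. ALKBH5 was named after its values were seen, to complete its list. The readers and all lists were chosen with earlier results of these data known. Alternatives were another or no pseudocount, centring, other FPKM filters, other folds, stricter peak filters, and other overlap, location and pairing rules. A correction for GC content and length, equal peak lengths and an FDR limit on overlaps were added after the data were seen. Steps were tested on simulated data. Python 3.11.15 with pandas 2.3.3, NumPy 2.4.6, SciPy 1.17.1 and matplotlib 3.10.9 was used. No protein sequence was used here, nor the study's own comparison of expression.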

Additional observations from a re-analysis of the deposited data

How the results depend on the processing

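Of 88 values recomputed under alternatives, 54 stayed within their yardstick, 31 moved beyond it and 3 reversed. For a ratio of FPKM the yardstick is the SD of the 500 nearest genes. For a ratio of fold enrichments it is the SD of 0.627 over all pairs. Most of the values were counts of genes or peaks, to which these SDs do not apply, and so were most of those that moved. The log2 ratio of YTHDF2 was -1.71 with a pseudocount of 0.1 and -1.81 without one, and with 0.1 the genes past 2-fold numbered 315 higher and 602 lower. At 1.5-fold 2 readers were past the limit, YTHDF2 and YTHDC2. Less the median of like GC content and length, YTHDC2 was not past it (-0.35) and YTHDF3 was, on the higher side (0.59). Stricter filters removed reader peaks: at an FDR of at most 0.05 there were 10 in shNC, at a fold enrichment of at least 2 there were 4 in shNC and 6 in shY2-2, so that the order of the lists turned, and at 4 there were 0 in either. With mean fold enrichments over all peaks of a gene, the negative values for YTHDF2 (second shNC peak), YTHDC1 (first) and YTHDF3 (second) became 0.69, 0.39 and 0.57. These means take in peaks of unequal strength that are absent from the other list. No paired analysis was possible because each condition has 1 library of each kind, and none could be left out. Depth is unknown for FPKM and for peaks, and most reader peaks have a fold enrichment under 2 in shNC.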
